A study of Mus musculus with 6 samples.

Results

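The 10 circadian clock genes Arntl, Clock, Per1, Per2, Per3, Cry1, Cry2, Dbp, Nr1d1 and Nr1d2 were examined in RNA sequencing of stromal cells sorted from mouse femurs at postnatal day 21. They were taken by symbol from a table of 17128 genes, and all 10 were present and passed the filter on low counts. The 3 CXCL12-deficient libraries came from GFP+ tdTomato+ cells of Cxcl12(GFP/fl); Col2a1-cre; R26R(tdTomato/+) mice. The 3 control libraries came from GFP+ cells of Cxcl12(GFP/fl); R26R(tdTomato/+) mice. In both groups a GFP knock-in replaced 1 Cxcl12 allele and the other allele was floxed. The Col2a1 promoter drives the cre, so the deleted and tdTomato-labelled cells descend from precursors that expressed Col2a1, and the gate differed between the groups together with the genotype. Each library was made from about 20000 cells, and the labels do not say whether the libraries came from separate animals, so a p-value here reflects only how far these libraries spread, which may be technical. The labels state no clock hour of harvest.

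The mammalian clock is a feedback loop of transcription that runs in nearly every cell. CLOCK pairs with BMAL1, the product of Arntl, and switches on genes with an E-box, among them the Per and Cry genes, Dbp and the Nr1d genes. PER and CRY proteins then repress CLOCK and BMAL1. The Nr1d genes encode REV-ERB alpha and beta, which repress Arntl through a ROR response element, so in mouse tissues Arntl peaks in opposite phase to Dbp, Nr1d1 and Nr1d2. DBP and its relatives TEF and HLF bind D-boxes, and in mouse bone, as elsewhere, the loop is set by light, feeding and glucocorticoids.

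The short motifs that carry these links were looked for in the promoters of the members, because they link the members to each other. RefSeq promoter windows of GRCm38.p6, 250 bases before to 50 bases after a start site, were found for 9 of the 10 members, all but Per2, in 13 windows of 300 bases. Both strands were searched for the E-box CACGTG, the D-box TTATGTAA and the core of the ROR response element TAGGTCA. Capitals mark the match in the stretches below, which read 5′ to 3′ on the strand of the gene.
Per3 first D-box: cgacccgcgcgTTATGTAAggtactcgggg
Per3 second D-box: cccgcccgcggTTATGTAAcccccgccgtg
Arntl ROR element core: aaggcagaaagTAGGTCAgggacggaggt
Cry1 E-box: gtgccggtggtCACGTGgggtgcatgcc
Per1 E-box: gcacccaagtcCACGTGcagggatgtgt

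The Per3 stretches lie on the minus strand at chr4:151044852-151044881 and chr4:151044805-151044834, with the match 205 and 158 bases before the start site. The Arntl stretch lies on the plus strand at chr7:113207530-113207558, with the match 30 bases after a start site. The Cry1 stretch is on the minus strand at chr10:85185098-85185125, with its E-box 60 bases before the start site. The Per1 stretch is on the plus strand at chr11:69098772-69098799, with its E-box 166 bases before the start site. Among all 32851 windows in the table, 0.938% held the D-box, 2.61% the ROR element core and 7.15% the E-box. An E-box was found in 2 of the 9 members, and the windows of Dbp, Nr1d1, Nr1d2, Clock and Cry2 held none of the 3 motifs, which says only that these letters are not in these windows. Arntl and Per1 each matched in 1 of 2 windows. A match is a run of letters and not a site shown to be bound.

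Total counts ran from 20133299 to 28009257 per library, and the members had between 94 reads (Per3) and 4539 reads (Nr1d1) in a library. Levels are CPM, counts per 1000000 counts of the library after TMM scaling, and differences were tested with the quasi-likelihood F-test of edgeR over 13926 genes, with Benjamini-Hochberg adjustment and a threshold of 0.05. As a check of the labels, Cxcl12 had 1423, 1280 and 1163 CPM in the CXCL12-deficient libraries, against 3876, 3673 and 3694 CPM in the control libraries (log2 fold change -1.54 ± 0.17 SE, adjusted p = 0.0053, edgeR). All 12 markers of CXCL12-abundant reticular cells had at least 1407 reads in every library. Control replicate 1 stood apart from the other controls in several members, as given below. Over the genes with more than 50 reads in a pair of libraries together, the mean chi-square of the counts per gene was 95.5 and 113.9 for that library against control replicates 2 and 3, and 35.8 between control replicates 2 and 3. The CXCL12-deficient pairs had between 90.3 and 111.5.

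No clock gene passed the test for a difference between the groups. Of the 10 members, edgeR called 0, DESeq2 0 and limma-voom 0. Of all tested genes, edgeR called 4.57%, DESeq2 8.59% and limma-voom 4.48%, so 0 calls among 10 genes do not set the members apart. At an unadjusted p below 0.05, 2 of 10 passed (Cry1 and Nr1d1), against 18.9% of all tested genes. The groups overlapped in CPM at all 10 members, whereas they did not overlap at 25.6% of tested genes. The median log2 fold change of the members was 0.18, with 6 positive and 4 negative, against 0.03 over all tested genes. The intervals were widest for Per3, Dbp, Arntl and Nr1d1.

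**Figure D1:**
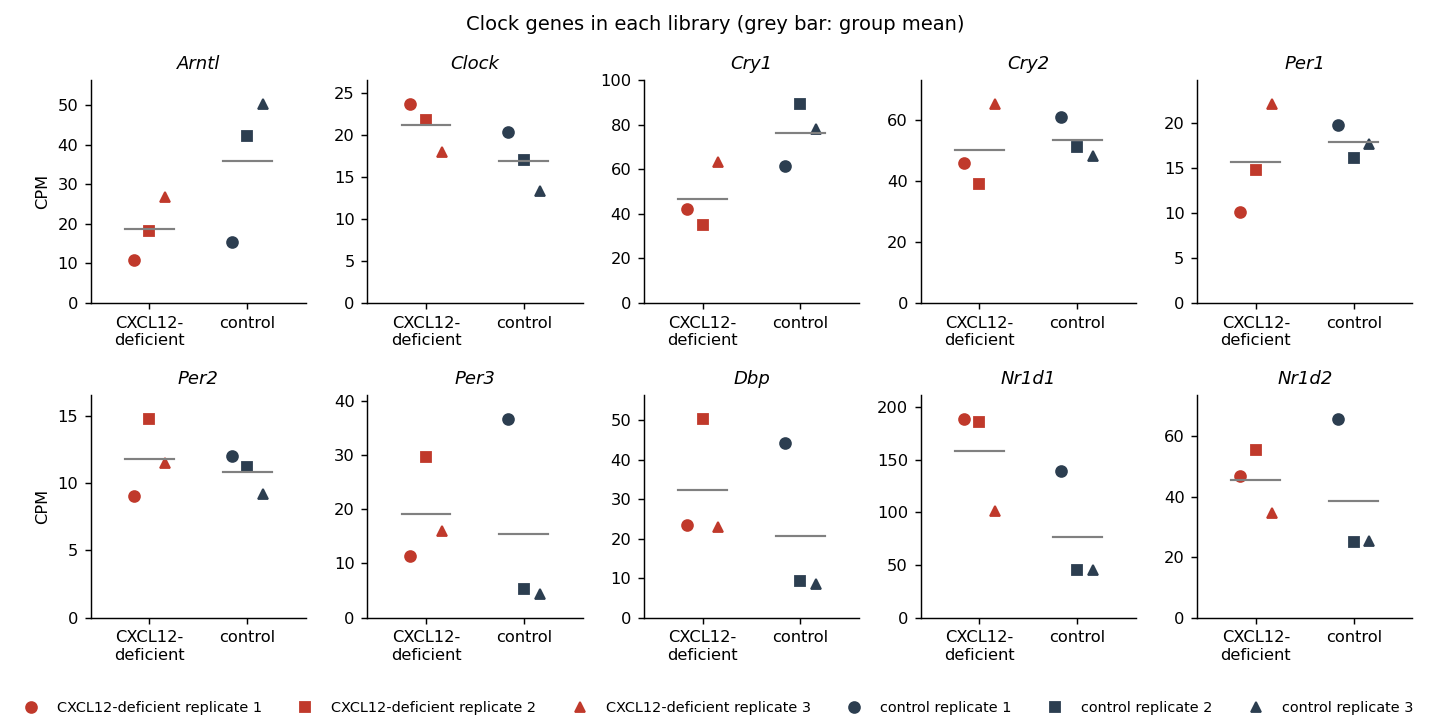
CPM (vertical axis, from 0) of each clock gene in the CXCL12-deficient and control libraries; each point is a library, its shape the replicate number, and the grey bar the group mean. Control replicate 1 lies far from the other control libraries at Arntl, Per3, Dbp, Nr1d1 and Nr1d2, and the groups overlap in every panel.

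The activators were Arntl and Clock. Arntl, the gene of BMAL1, had 10.8, 18.2 and 26.7 CPM in the CXCL12-deficient libraries, against 15.5, 42.1 and 50.4 CPM in the control libraries. Control replicate 1 was lower than CXCL12-deficient replicates 2 and 3, and the other controls were above every CXCL12-deficient library. The log2 fold change was -0.95 ± 0.45 (95% interval from -1.96 to 0.05, adjusted p = 0.29, edgeR). Clock, which encodes the partner of BMAL1, had 23.7, 21.8 and 18.0 CPM in CXCL12-deficient libraries and 20.4, 17.1 and 13.3 CPM in controls. Its libraries ranged 1.32-fold in the CXCL12-deficient group and 1.53-fold among controls, and its log2 fold change was 0.32 ± 0.23 (adjusted p = 0.52, edgeR). Npas2, which can replace CLOCK in mice and was picked for mention, like Hlf below, after its values were seen, had 15.6, 16.9 and 32.0 CPM in CXCL12-deficient libraries, where replicate 3 stood alone, and between 13.8 and 16.5 CPM in controls (adjusted p = 0.44, edgeR).

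The cryptochromes encode the strongest repressors of the loop. Cry1 had 42.1, 35.1 and 63.0 CPM in CXCL12-deficient libraries and 61.5, 89.4 and 78.1 CPM in controls. Only control replicate 1 fell below a CXCL12-deficient library, replicate 3, so the groups overlapped by that pair. The log2 fold change was -0.71 ± 0.24 (95% interval from -1.25 to -0.16, unadjusted p = 0.016, adjusted p = 0.15, edgeR), and without CXCL12-deficient replicate 3 it was -0.98 with adjusted p = 0.049, in a refit that called 3.35% of genes. Cry2 had 45.9, 39.0 and 65.4 CPM in CXCL12-deficient libraries and 60.9, 51.0 and 48.3 CPM in controls (log2 fold change -0.09, 95% interval from -0.58 to 0.39). Its groups lay over each other.

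The period genes encode the partners of the cryptochromes. Per1 also responds quickly to glucocorticoids and cyclic AMP. It had 10.1, 14.8 and 22.2 CPM in CXCL12-deficient libraries and 19.7, 16.1 and 17.7 CPM in controls. Its controls lay close together, within 1.23-fold, while its CXCL12-deficient libraries ranged 2.19-fold around them. Per2 had 9.0, 14.8 and 11.5 CPM in CXCL12-deficient libraries and 12.03, 11.2 and 9.21 CPM in controls. The log2 fold changes of Per1 and Per2 were -0.19 (95% interval from -0.86 to 0.48) and 0.12 (95% interval from -0.50 to 0.74).

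Per3, which is largely dispensable for the rhythm in mice, was the most variable member. It had 11.4, 29.7 and 16.1 CPM in CXCL12-deficient libraries, against 36.7, 5.37 and 4.44 CPM in controls. Control replicate 1 was thus the highest of the 6 libraries and the other controls were the lowest, an 8.27-fold range within the group. Its log2 fold change of 0.29 ± 0.75 had a 95% interval from -1.42 to 2.01 (adjusted p = 0.88, edgeR), which holds differences of several fold in either direction.

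The REV-ERB genes encode the repressors of Arntl. Nr1d1 had 189.1, 185.6 and 101.0 CPM in CXCL12-deficient libraries and 139.0, 45.2 and 45.6 CPM in controls. Control replicate 1 exceeded CXCL12-deficient replicate 3, and the other controls were below all CXCL12-deficient libraries. The log2 fold change was 1.05 ± 0.44 (95% interval from 0.05 to 2.04, unadjusted p = 0.041, adjusted p = 0.24, edgeR). Nr1d2 had 46.8, 55.6 and 34.7 CPM in CXCL12-deficient libraries and 65.9, 24.96 and 25.3 CPM in controls. Here control replicate 1 was the highest library of all, and the log2 fold change was 0.24 ± 0.37 (adjusted p = 0.80, edgeR).

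Dbp, the classical output gene of the clock, had 23.5, 50.4 and 23.0 CPM in CXCL12-deficient libraries and 44.3, 9.39 and 8.41 CPM in controls. CXCL12-deficient replicate 2 and control replicate 1 were high, control replicates 2 and 3 were low, and the remaining CXCL12-deficient libraries lay between. The log2 fold change was 0.64 ± 0.61 (95% interval from -0.75 to 2.03, adjusted p = 0.64, edgeR).

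Leaving out control replicate 1 changed these calls. Without it, Nr1d1 had a log2 fold change of 1.78 (adjusted p = 0.021, edgeR) and Dbp of 1.84 (adjusted p = 0.048), so 2 of 10 members were called, where that refit called 4.07% of all genes. Per3 had 1.94 (adjusted p = 0.057), Arntl -1.33 (adjusted p = 0.084) and Nr1d2 0.84 (adjusted p = 0.11) in the same refit. At an unadjusted p below 0.05, 6 of 10 members passed it, against 19.2% of genes. Control replicate 1 was singled out here after its values were seen, and the full comparison is the one with all 6 libraries. In the refits without control replicate 2, control replicate 3 or CXCL12-deficient replicate 1 or 2, no member was called. Over all genes, the refits without control replicates 2 and 3 called 160 of 14200 and 74 of 14206. Those without CXCL12-deficient replicates 1 and 2 called 493 of 14230 and 488 of 14277.

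**Figure D2:**
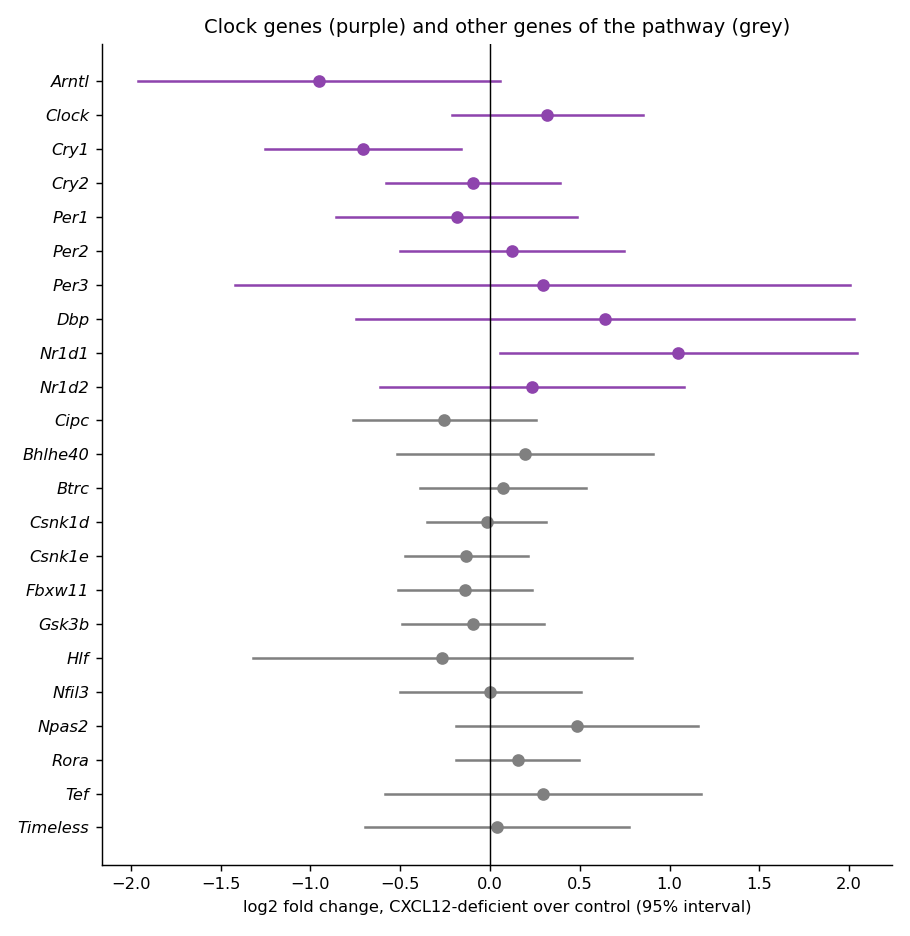
Log2 fold change of CXCL12-deficient over control libraries (horizontal axis) with its 95% interval from edgeR, for the 10 clock genes in purple and for other genes of the pathway averaging 5 CPM or more in grey. The intervals of Per3 and Dbp are the widest among the clock genes, those of the kinase genes Csnk1d and Csnk1e are narrow, and no gene shown passed the adjusted threshold.

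Because Arntl runs opposite to Dbp and Nr1d1 in mouse tissues, their ratios within a library were computed, which need no scaling between libraries. The mix of cells in a bulk library can also move such a ratio, and its part was not tested. The log2 ratio of Dbp to Arntl counts was 1.125, 1.47 and -0.21 in CXCL12-deficient libraries, against 1.52, -2.16 and -2.58 in controls. Control replicate 1 had the highest ratio of the 6 libraries and the other controls the lowest ones. The ratio of Nr1d1 to Arntl was 4.13, 3.35 and 1.92 in CXCL12-deficient libraries, against 3.17, 0.10 and -0.14 in controls. That of Per2 to Arntl was -0.26, -0.30 and -1.21 in CXCL12-deficient libraries, against -0.36, -1.91 and -2.45 in controls. For all 3 ratios to Arntl, CXCL12-deficient replicates 1 and 2 and control replicate 1 were high, CXCL12-deficient replicate 3 was lower, and control replicates 2 and 3 were lowest.

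The mean difference of the Dbp to Arntl ratio between the groups was 1.87, with means of 0.79 ± 0.89 in CXCL12-deficient libraries and -1.08 ± 2.25 in controls (SD, n = 3 each). It was smaller than the range among the controls alone, which was 4.10 on the log2 scale. The ratio of Nr1d1 to Arntl differed by 2.09 and ranged over 3.31 among the controls. The ratio of Per2 to Arntl ranged over 0.95 in CXCL12-deficient libraries and 2.09 in controls. Among controls the remaining ratios had smaller ranges than those to Arntl, while among CXCL12-deficient libraries Dbp to Nr1d1 ranged wider than Per2 to Arntl. Dbp to Nr1d1 ranged over 1.13 in CXCL12-deficient libraries and 0.79 in controls, and Per1 to Per2 over 0.95 in CXCL12-deficient libraries and 0.42 in controls. The groups overlapped in all 5 ratios computed, and none was tested.

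**Figure D3:**
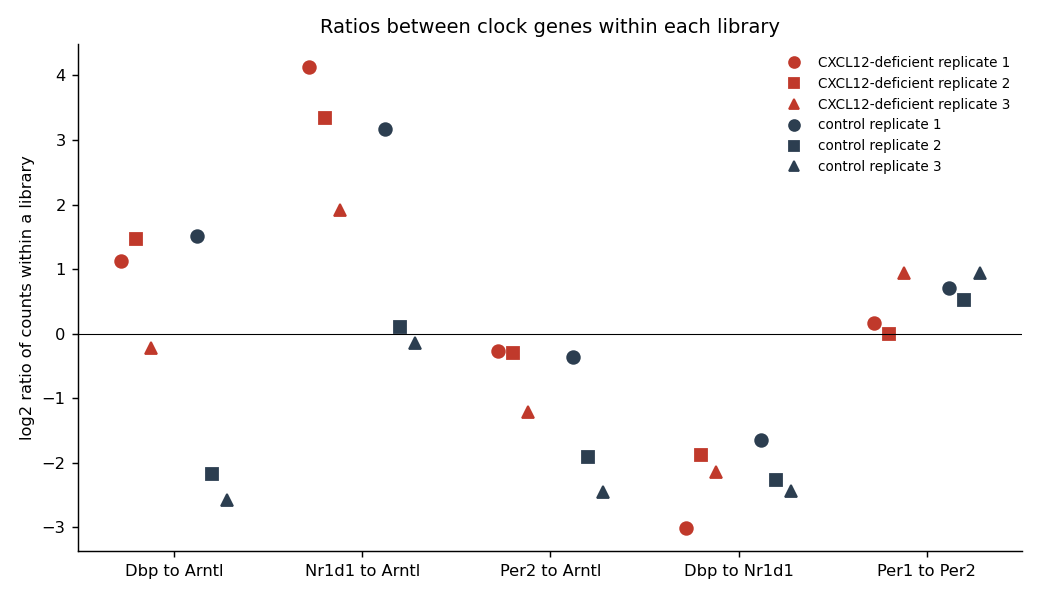
Log2 ratio of the counts of 2 clock genes within a library (vertical axis) for 5 pairs of genes; each point is a library, coloured by group and shaped by replicate number. Control replicate 1 lies with the CXCL12-deficient libraries in the 3 ratios to Arntl, while control replicates 2 and 3 lie below them.

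The spread of the members within a group was set beside that of all 13926 tested genes, as the SD of log2(CPM + 0.5) over the 3 libraries. Among the controls, Per3 had an SD of 1.62, at the 99.7 percentile of tested genes, and Dbp one of 1.304, at the 99.2 percentile. Nr1d1 (SD 0.93) and Arntl (SD 0.90) were at percentiles 97.0 and 96.7, and Nr1d2 (SD 0.79) at 94.9. The median gene had an SD of 0.25. The other 5 members did not stand out: Clock was at percentile 60.7, Cry1 at 55.6, Per2 at 36.0, Cry2 at 31.8 and Per1 at 24.3. Of the 10842 genes averaging 5 CPM or more, Per3 had the 21st and Dbp the 38th largest spread among controls. Genes ranked above Per3 included the cartilage gene Col9a3, at rank 1 with an SD of 3.09, and the osteocyte gene Dmp1, at rank 10 with 2.10. These percentiles describe the libraries and carry no test.

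In the CXCL12-deficient libraries the same measure was less extreme for these members and larger for others. Per3 was at percentile 86.5 (SD 0.68), Arntl at 84.4 (SD 0.64), Dbp at 84.3 (SD 0.63), Per1 at 79.1 and Nr1d1 at 76.5, where the median gene had an SD of 0.29. Clock, at percentile 30.0, was the steadiest member there.

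**Figure D4:**
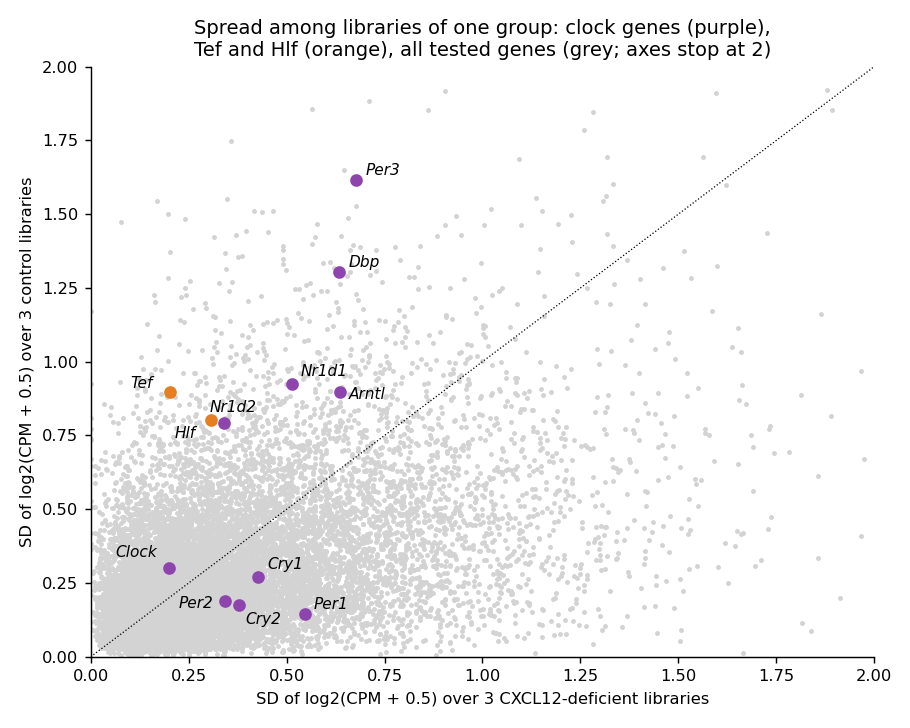
SD of log2(CPM + 0.5) over the 3 CXCL12-deficient libraries (horizontal axis) and over the 3 control libraries (vertical axis) for each tested gene, with clock genes in purple and Tef and Hlf in orange (both axes stop at 2). Per3 and Dbp lie above most of the cloud among controls, at 1.62 and 1.304, while Per1, Per2, Cry1, Cry2 and Clock lie within its bulk. Genes with an SD above 2 in either group are not shown.

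The levels of different members can be compared only per length of the gene. As CPM per kilobase of annotated exon (GENCODE M21), Nr1d1 had the highest mean level, 51.5 ± 16.2 in CXCL12-deficient libraries and 24.9 ± 17.6 in controls (SD, n = 3 each). Cry1 followed with 14.0 ± 4.34 in CXCL12-deficient libraries and 22.9 ± 4.2 in controls, close to Nr1d1 in controls. Dbp had 10.8 ± 5.24 in CXCL12-deficient libraries and 6.92 ± 6.83 in controls, Nr1d2 had 8.45 ± 1.95 and 7.16 ± 4.35 in the same order, and Cry2 had 7.92 ± 2.17 and 8.45 ± 1.05. These 3 did not differ from each other beyond their spread. Arntl, Per1, Per2, Per3 and Clock were the lowest by group mean. Their means lay between 1.54 and 2.79 per kilobase in CXCL12-deficient libraries and between 1.23 and 4.78 in controls. The order by control mean depends on control replicate 1. In control replicates 2 and 3 taken alone, Cry1 lay above Nr1d1 per kilobase, and Arntl above Dbp and Nr1d2.

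Reads of 4 members can be mixed up with those of a neighbour on the opposite strand, since Nextera XT libraries do not mark strand and the handling of overlaps in the counting is not given in the sources used here. The exons of Nr1d1 (GRCm38 chr11:98767932-98775333, minus strand) share 263 bases, 8.55% of its exon length, with Thra, the thyroid hormone receptor alpha gene. Thra had 66.6, 63.9 and 69.8 CPM in CXCL12-deficient libraries, against 54.4, 44.4 and 47.2 CPM in controls (log2 fold change 0.46 ± 0.15, adjusted p = 0.14, edgeR). Among the controls Thra ranged 1.23-fold and Nr1d1 3.07-fold. The exons of Dbp (chr7:45705088-45710203, plus strand) share 539 bases, 18.0% of its exon length, with the sphingosine kinase gene Sphk2. Sphk2 had 42.6, 73.8 and 53.2 CPM in CXCL12-deficient libraries and 51.6, 47.2 and 42.1 CPM in controls. Among the controls Sphk2 ranged 1.23-fold and Dbp 5.27-fold. How reads of the shared bases were assigned was not tested, and ranges of whole genes do not show it. Cry2 shares 295 bases with the noncoding gene D930015M05Rik, which had under 6 CPM in every library, and Arntl shares 33 bases with the antisense gene Gm45355, which was not analysed here. Per3 spans chr4:151003652-151044665 on the minus strand and shares exon bases with no other annotated gene.

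The other genes of the pathway also held variable and steady genes. Of 20 listed, 19 were found and 18 tested, and edgeR, DESeq2 and limma-voom each called 0, with 0 at an unadjusted p below 0.05 by edgeR. Their median log2 fold change was 0.02. Tef, a D-box binding factor related to DBP, had 57.6, 74.5 and 72.8 CPM in CXCL12-deficient libraries, against 98.4, 38.9 and 29.7 CPM in controls. Its highest library was control replicate 1 and its lowest were the other controls, as for Per3. Hlf, the third factor of that family, had 4.92, 4.97 and 7.37 CPM in CXCL12-deficient libraries and 12.1, 4.51 and 4.11 CPM in controls. In SD among controls Tef was at percentile 96.7 and Hlf at 95.2. Bhlhe40, which encodes the E-box repressor DEC1, had 159.9, 111.5 and 107.8 CPM in CXCL12-deficient libraries and 166.4, 99.8 and 64.6 CPM in controls, again highest in control replicate 1.

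Nfil3, which represses through the same D-boxes that DBP activates, did not share this pattern, with 250.8, 155.6 and 261.0 CPM in CXCL12-deficient libraries and 182.8, 260.8 and 223.6 CPM in controls. Rora, an activator of Arntl, lay between 63.3 and 74.8 CPM in CXCL12-deficient libraries and between 56.2 and 66.7 CPM in controls. Csnk1d, a kinase that marks PER proteins for breakdown, had 160.5 ± 13.9 CPM in CXCL12-deficient libraries and 162.6 ± 16.5 CPM in controls (SD, n = 3 each). Fbxw11, a ubiquitin ligase subunit for PER proteins, had 81.8 ± 14.8 CPM in CXCL12-deficient libraries and 90.1 ± 3.56 CPM in controls. The kinase gene Gsk3b had 61.1 ± 7.96 CPM in CXCL12-deficient libraries and 65.2 ± 9.54 CPM in controls. In these 3 genes, whose products act on clock proteins after translation, both groups and all libraries stayed close together.

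**Figure D5:**
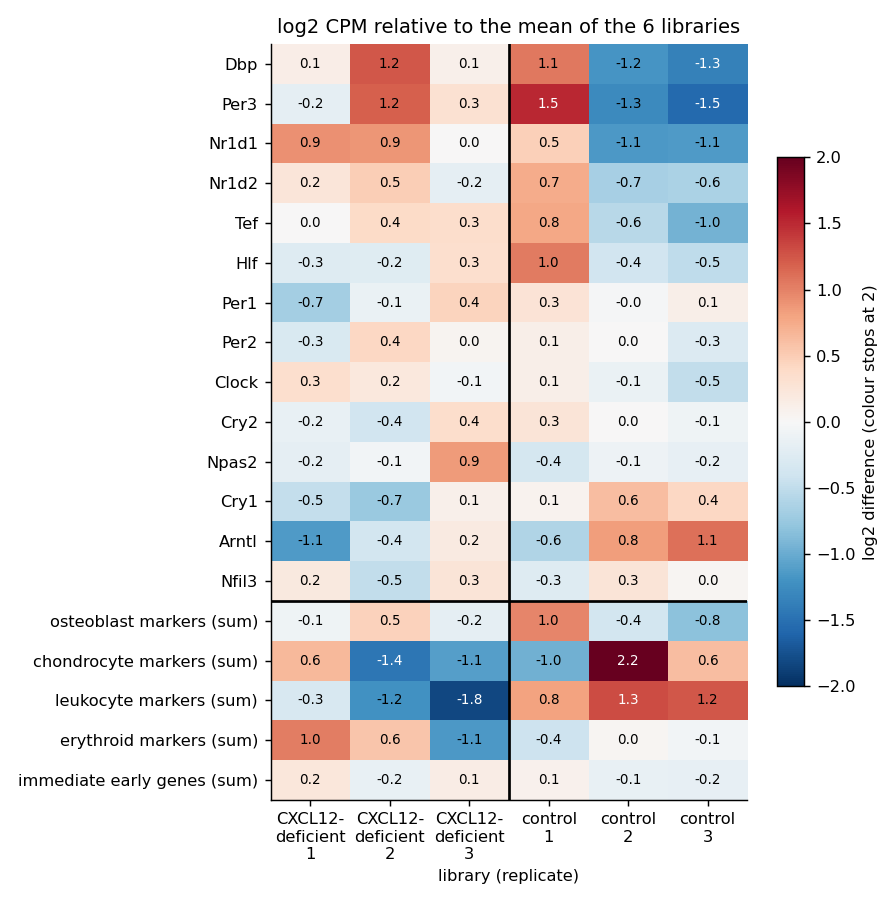
Log2 CPM of each gene, or of the sum over each marker list, relative to its mean over the 6 libraries (rows: genes and lists; columns: libraries; red is above the mean, blue below, and the colour scale stops at 2). Dbp, Per3, Nr1d1, Nr1d2 and Tef are low in control replicates 2 and 3, where Arntl and Cry1 are high, and the osteoblast marker sum is highest in control replicate 1.

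Genes known as rhythmic outputs or for inputs shared with the clock were looked at next. Of 12 genes known to cycle in many mouse tissues, 1 rose, Dtx4, and 1 fell, Wee1, with a median log2 fold change of 0.07. Among all tested genes 0.639% were called higher and 3.94% lower. At an unadjusted p below 0.05, 6 of these 12 passed, against 18.9% of all tested genes, and the groups did not overlap at 6 of 12, against 25.6%. DESeq2 called 3 of the 12 and limma-voom 2. Wee1, the kinase gene that delays mitosis and carries E-boxes in mice, had 3.79, 11.6 and 12.6 CPM in CXCL12-deficient libraries, against 25.7, 35.6 and 31.6 CPM in controls (log2 fold change -1.74 ± 0.40, adjusted p = 0.045, edgeR). Its groups did not overlap, and control replicate 1 lay with the other controls, unlike at Dbp or Per3. It lost its call without any 1 of the control libraries or without CXCL12-deficient replicate 2, with adjusted p between 0.066 and 0.17. Dtx4, a ubiquitin ligase gene, had 44.8, 61.4 and 45.7 CPM in CXCL12-deficient libraries, against 28.6, 25.9 and 31.0 CPM in controls (log2 fold change 0.83 ± 0.19, adjusted p = 0.042, edgeR), and lost its call whichever of the 6 libraries was left out. Wee1 is also a cell cycle gene, and the leukocyte markers given below were lower in the same libraries; their part in its fall was not tested.

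Of 22 immediate early genes and 9 glucocorticoid response genes, edgeR called 0 and 0, with 2 and 0 at an unadjusted p below 0.05. DESeq2 called 2 and 0, and limma-voom 0 and 0. Their summed CPM ranged 1.31-fold and 1.26-fold among the CXCL12-deficient libraries, and 1.197-fold and 1.303-fold among the controls. Fos, the most abundant of the first list, had 5648, 3336 and 4383 CPM in CXCL12-deficient libraries and 4547, 3202 and 3272 CPM in controls. Tsc22d3, which encodes the glucocorticoid-induced leucine zipper, had 788.2, 799.3 and 1252 CPM in CXCL12-deficient libraries and 1090, 1216 and 997.6 CPM in controls.

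Cell type markers differed between libraries, both between and within the groups. For the calls below, edgeR called 0.639% of all tested genes higher and 3.94% lower, and the groups did not overlap at 25.6%. Of the 12 markers of CXCL12-abundant reticular cells, 11 were above 0 on the log2 fold change scale. The list's median was 0.58 and that of all tested genes 0.03. At an unadjusted p below 0.05 by edgeR, 9 passed, among them Cxcl12, which fell, against 18.9% of all tested genes. Adipoq, Ebf3 and Cxcl14 rose and Cxcl12 fell, and without CXCL12-deficient replicate 1, control replicate 2 or control replicate 3 none of the list was called higher. Cxcl14, a chemokine gene, had 2402, 2283 and 1932 CPM in CXCL12-deficient libraries, against 1318, 1132 and 867.0 CPM in controls (log2 fold change 0.996 ± 0.20, adjusted p = 0.028, edgeR). Fewer cells of a type and less RNA per cell cannot be told apart in bulk libraries. All 18 leukocyte markers were higher in every control library than in any CXCL12-deficient library, 17 of 18 fell by the test, and their sum was 7560, 4111 and 2675 CPM in CXCL12-deficient libraries, against 16520, 23490 and 22370 CPM in controls. That sum ranged 1.42-fold among controls, and single markers of the list ranged from 1.13-fold to 5.24-fold. The 10 endothelial markers summed to between 21.4 and 34.3 CPM in CXCL12-deficient libraries and between 96.6 and 174.2 CPM in controls, and 6 of them fell. The leukocyte calls dropped to 8 when CXCL12-deficient replicate 2 was left out, and to 6 and 3 when control replicates 2 and 3 were, and the endothelial calls to between 2 and 3 without any 1 of the control libraries, with all 18 leukocyte markers at an unadjusted p below 0.05 in each refit. Itgam, the CD11b gene of myeloid cells, had 19.1, 7.07 and 5.82 CPM in CXCL12-deficient libraries, against 62.7, 74.5 and 109.9 CPM in controls. Of 10 erythroid markers listed, 7 were found, and the globin genes Hba-a1, Hba-a2 and Hbb-bt were not among them. The 7 summed to 6889, 4966 and 1535 CPM in CXCL12-deficient libraries and to 2541, 3475 and 3272 CPM in controls. Of these 7, edgeR, DESeq2 and limma-voom each called 0, with 0 at an unadjusted p below 0.05 by edgeR.

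Markers of bone-forming cells also varied widely among the controls. A list of 15 osteoblast and osteocyte markers was added after the values were seen, and all but Sost were found. The 14 found summed to 15520, 22780 and 14630 CPM in CXCL12-deficient libraries and to 32460, 12810 and 9386 CPM in controls. The 2 libraries with the highest sums, control replicate 1 and CXCL12-deficient replicate 2, also had the highest Dbp, Per3, Nr1d2 and Tef. The 2 with the lowest sums, control replicates 2 and 3, had the lowest levels of these genes. These 4 genes were singled out after their values were seen: Nr1d1 was highest in CXCL12-deficient replicate 1, and Per1, Per2, Cry1, Cry2 and Clock had other orders of libraries. Of the 14 markers, 11 were highest in control replicate 1, and Runx2, Phex and Mepe were highest elsewhere. Col1a1, the main collagen gene of bone, had 1519, 7055 and 1420 CPM in CXCL12-deficient libraries and 9819, 2123 and 1249 CPM in controls. Abundant genes weigh most in the sum, and its rise from CXCL12-deficient replicate 1 to replicate 2 rests largely on Col1a1 and Col1a2. Ibsp, Spp1, Runx2, Dmp1 and Phex were higher in CXCL12-deficient replicate 1 than in replicate 2, and the other markers were lower. Dmp1, an osteocyte gene, had 119.1, 110.9 and 36.1 CPM in CXCL12-deficient libraries and 129.7, 18.5 and 7.04 CPM in controls. Of the 13 tested osteoblast markers, edgeR, DESeq2 and limma-voom each called 0, with 1 at an unadjusted p below 0.05 by edgeR, and Mepe, which was not tested, had no read in 4 of the 6 libraries. Without control replicate 1, edgeR called 2 of the 13 higher, in a refit that called 4.07% of all genes in either direction. Col1a1, Dmp1 and the other markers named here were chosen for mention after their values were seen.

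The 11 chondrocyte markers, also added after the values were seen, summed to 560.4, 131.4 and 166.3 CPM in CXCL12-deficient libraries and to 184.0, 1684 and 551.5 CPM in controls. The part of osteoblasts, chondrocytes and leukocytes in the clock gene levels was not tested, nor was a difference in the hour of harvest, for which the labels hold no value.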

How the data were processed

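RNA was sequenced from GFP+ cells sorted from collagenase-digested femurs without their growth plates, with Nextera XT libraries, per the labels' protocols. The authors deposited raw counts per gene, counts scaled by 1 constant per library (a depth-normalized signal) and regularized log2 values; the mouse build mm10 and the tools TopHat2 2.0.13, Bowtie2 2.2.1, HTSeq and DESeq2 are named in the submitters' processing notes, while gene annotation and strand setting were not given in the sources used here. The scaled counts were checked to be the raw counts divided by a constant and were used no further.

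The table of 17131 entries held 4 exon entries of Cxcl12, which were summed, leaving 17128 genes. The 13926 genes passing filterByExpr (minimum count 10, minimum total 15) were tested on the raw counts in edgeR 4.0.16 (R 4.3.3) by its quasi-likelihood F-test with robust shrinkage, TMM factors between 0.955 and 1.05, all 6 libraries and no covariate. P-values were adjusted by the Benjamini-Hochberg method over all tested genes. SE and 95% intervals come from that fit. DESeq2 1.42.0, limma-voom (limma 3.58.1), limma on the deposited log2 values, other scalings and filters, and leaving out each library were alternatives. The procedure was tested on simulated data.

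Named genes were the 10 members, called genes and the 8 most abundant among the other clock genes, up to 2 per other list, genes overlapping a member and Cxcl12; 1 gene this rule names is not reported here. Exon lengths and overlaps are from GENCODE M21, and promoter windows from RefSeq. Of the 20 other clock genes, 2 were found under older symbols and 1 was not analysed here. Members and lists were chosen with earlier results of these data known, and the osteoblast and chondrocyte lists were added after the values were seen. Replicate numbers follow accession order and only name libraries. Totals of 20133299 to 28009257 counts make 1 read worth 0.0357 to 0.0497 CPM.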

Additional observations from a re-analysis of the deposited data

How the results depend on the processing

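The count of 0 clock genes called was the same under all 8 alternatives of scaling, filter and tool, with a lowest adjusted p of 0.0655 (Cry1, DESeq2), and lay between 0 and 2 when each library was left out. The count of other clock genes called was 0 in every alternative. The 29 calls over the rhythmic, immediate early, glucocorticoid and cell type lists dropped to 19, 10 and 6 without control replicates 1, 2 and 3, and ranged from 6 to 21 over the 6 refits without a library. Over all genes, the 637 calls of edgeR became 1328 with DESeq2, and 160 and 74 without control replicates 2 and 3. Of 140 alternative values of the members' log2 fold changes, 130 kept their direction and side of the threshold, 3 passed the threshold (Dbp, Nr1d1 and Cry1, each with a library left out) and 7 changed sign. With each library left out, Per1 ranged from -0.518 to 0.051, Per2 from -0.076 to 0.283, Per3 from -0.176 to 1.94, Cry2 from -0.331 to 0.059 and Nr1d2 from -0.003 to 0.842. Among the other named genes the same refits ran from -0.143 to 0.204 for Nfil3, -0.084 to 0.045 for Csnk1d, -0.089 to 0.598 for Bhlhe40, -0.187 to 0.011 for Gsk3b, -0.017 to 0.975 for Tef, -0.03 to 0.281 for Errfi1, -0.028 to 1.221 for Beta-s and -0.258 to 0.24 for D930015M05Rik. Nfil3, at 0.0005 with all libraries, also changed sign with DESeq2 size factors (-0.015), no filter (-0.001), a filter of 5 CPM in 3 libraries (-0.032), DESeq2 (-0.014), limma-voom (-0.022) and limma on the deposited log2 values (-0.024). The difference of the log2 ratio ran from 1.117 to 3.166 for Dbp to Arntl, 1.498 to 3.152 for Nr1d1 to Arntl, 0.546 to 1.589 for Per2 to Arntl, -0.451 to 0.112 for Dbp to Nr1d1 and -0.642 to -0.169 for Per1 to Per2 without a library. The cause was not tested. No paired analysis was possible because the labels give no replicate numbers. With 3 libraries per group, the 95% intervals of Per3 (-1.42 to 2.01) and Dbp (-0.75 to 2.03) limit what can be said of these genes.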
